A study of Mus musculus with 18 samples.

Results

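Embryonic mouse spinal cord cells that carry the Aldh1l1-GFP transgene were set against all live cells of the cord, and the question here is how that contrast changed between E14.5 and the end of gestation. The difference in log2 expression between sorted GFP-positive cells (GFP) and all live sorted cells (whole) is called the GFP enrichment, and the quantity tested is the enrichment at the late age minus the enrichment at E14.5, the interaction. The 11 arrays of these groups were chosen by their titles from 18 in the series. They are GFP late (3 arrays, 2 of E17.5 and 1 of E18.5, replicate 3), whole late (3 arrays with the same ages), GFP E14.5 (2 arrays) and whole E14.5 (3 arrays). The 6 arrays of E13.5, 3 for each sort, served to estimate the spread per gene, to choose genes at an age outside the comparison and to give the enrichment of single genes there. A further E14.5 array, whose title says that it was mislabeled, entered nothing.

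All embryos carried the transgene, in which green fluorescent protein is driven by regulatory sequence of the Aldh1l1 gene, and all were on a Swiss-Webster background. By their titles the comparison samples are all live sorted cells and by the cell type label whole cord, whereas the treatment text, the same for every sample, mentions a GFP-negative sort. The titles were followed, so whole still holds the GFP cells. Replicates are labelled biological, with no litter or animal named, and a p-value therefore covers only the spread between these arrays. In such bulk samples a larger share of a cell type and more RNA per cell of that type cannot be told apart.

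Around E14.5 the ventricular zone of the cord has turned from making neurons to making glia. Radial glia, the elongated progenitors that line the central canal, give rise to astrocytes, which move into the grey and white matter and switch on transporters for glutamate, ions and water. Oligodendrocyte precursors leave the Olig2 domain in parallel, while microglia and blood vessels, which arise outside the neural tube, spread through the tissue. Aldh1l1 encodes a folate enzyme that is expressed in radial glia and kept in astrocytes.

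The transgene's own gene showed the sort and its change with age. Aldh1l1 measured 10.19, 10.28 and 9.93 in GFP late and 9.39, 9.21 and 8.91 in whole late (log2 units, in replicate order). It measured 10.12 and 10.10 in GFP E14.5 and 8.20, 8.36 and 8.35 in whole E14.5. The GFP arrays lay above the whole arrays of their age without overlap, and it was the whole samples that differed between the ages. The ratio of GFP to whole was 1.95 at the late age and 3.49 at E14.5, and the interaction was -0.84 ± 0.18 (log2, limma's standard error, adjusted p = 0.012). Without GFP E14.5 replicate 1 its adjusted p was 0.0538.

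Of 23854 genes, 1226 (5.14%) passed an adjusted p of 0.05 for the interaction, by limma with Benjamini-Hochberg adjustment. The enrichment was higher at the late age for 465 genes (1.95%) and lower for 761 (3.19%), against a median interaction of 0.06 over all genes. At an unadjusted limma p under 0.05, 2281 of the 23854 genes were higher and 2060 lower, the background for such counts below. An interaction of at least 1, a doubling of the ratio, was reached by 90 of the genes that passed with a higher enrichment, and one of at most -1 by 235 of those with a lower enrichment. Fewer genes separated the sorts at the late age than earlier. At the late age 1098 genes were higher (4.6%) and 1116 lower (4.68%) in GFP than in whole, and at E14.5 2458 were higher (10.3%) and 1961 lower (8.22%). Without GFP E14.5 replicate 1 the interaction gave 235 higher and 431 lower genes, without GFP E14.5 replicate 2 it gave 231 and 413, and without whole E14.5 replicate 1 it gave 302 and 513. Each of the 1226 genes kept its sign in all 11 fits that left out 1 array, and 430 kept the call in all of them.

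**Figure D1:**
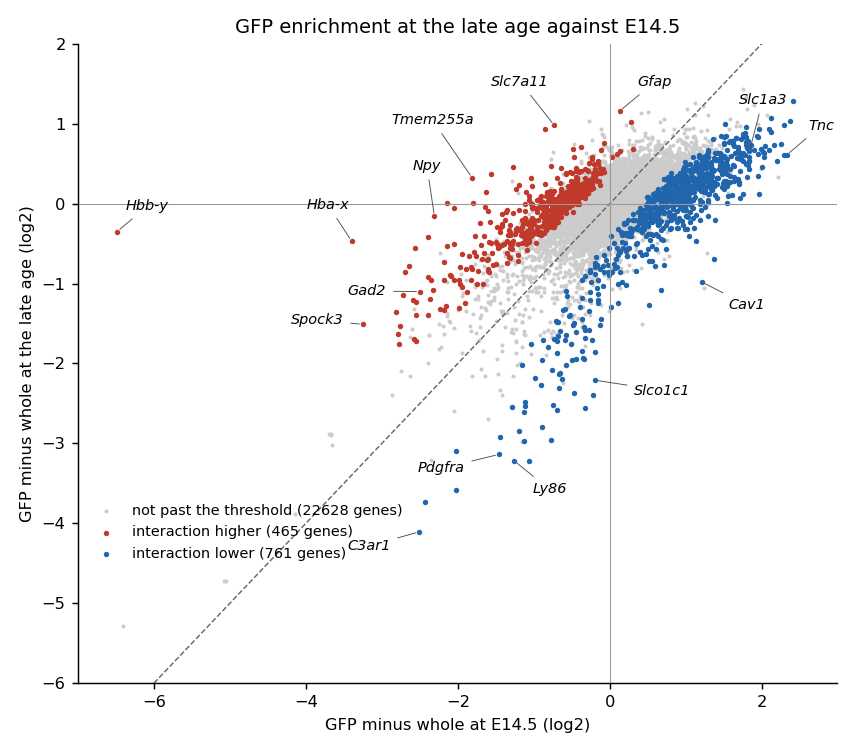
GFP enrichment of each gene at the late age (vertical axis) against that at E14.5 (horizontal axis), both in log2 units, with 1 point for each of the 23854 genes and the dashed line where both are equal. Genes with a lower interaction (blue, 761) lie mostly right of the centre and close to 0 on the vertical axis, genes with a higher interaction (red, 465) mostly left of it, and Pdgfra, Ly86, C3ar1 and Slco1c1 lie far below the line on the depleted side.

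Most of these calls were contrasts that narrowed. The enrichment at each age is a term of the interaction that chose the genes, so the shares below are partly built in and only describe the calls. Of the 761 genes with a lower interaction, 399 (52.4%) were above whole at E14.5 and no longer separated from it at the late age, and 192 (25.2%) were above whole at both. Of the 465 with a higher interaction, 293 (63%) were below whole at E14.5 and not separated from it at the late age, and 108 (23.2%) were below it at both. A smaller set widened: 102 of the lower calls (13.4%) were below whole at the late age alone, and 46 (6.04%) at both ages. Of the higher calls, 35 (7.53%) were above whole at the late age alone.

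Genes chosen on the E13.5 arrays narrowed too. E13.5 is nearer to E14.5 than to the late age, so this choice favours genes with an early contrast. The counts therefore describe these genes and cannot show narrowing in general. At E13.5, 2647 genes were higher (11.1%) and 1909 lower (8%) in GFP than in whole, and 323 of the higher ones lay at least 1 log2 unit above whole. The median enrichment of these 323 was 1.22 at E13.5, then 1.33 at E14.5 and 0.47 late, and 319 of them (98.8%) lay nearer 0 at the late age than at E14.5. Of these 323, 7 stood at least 1 unit from whole late and 261 did so at E14.5, and 209 passed the interaction with a lower value and 0 with a higher one by limma (1 higher at an unadjusted p under 0.05). Of the 266 genes chosen at least 1 unit below whole at E13.5, the median was -1.34 at E13.5, then -1.56 at E14.5 and -0.84 late, and 230 (86.5%) lay nearer 0 at the late age. Of these 266, 105 stood at least 1 unit from whole late and 225 did so at E14.5, and 115 passed the interaction with a higher value and 6 with a lower one. These counts use E14.5 and late arrays that took no part in the choice, but the fit shares 1 estimate of the spread per gene.

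The interaction is the change of the GFP cells with age minus the change of whole. The change of whole was the larger in size for 358 of the 465 genes with a higher interaction (77%). The same held for 602 of the 761 with a lower one (79.1%). Over all genes the change of whole was also the wider, with a standard deviation of 0.353 against 0.265 in the GFP cells. Both changes are terms of the interaction, so the 77% and 79.1% are partly built in. From E14.5 to the late age 1486 genes (6.23%) changed in the GFP cells and 4370 (18.3%) in whole. The GFP cells had 704 genes higher (2.95%) and 782 lower (3.28%) at the late age, and whole had 2247 higher (9.42%) and 2123 lower (8.9%). The GFP counts were 551 and 1070 when all arrays were set to a common median. Among genes with a lower interaction, 532 of 761 (69.9%) rose in whole and did not pass in the GFP cells, 100 (13.1%) fell in the GFP cells alone, and 39 (5.12%) did both. Among genes with a higher interaction, 324 of 465 (69.7%) fell in whole and did not pass in the GFP cells, and 61 (13.1%) rose in the GFP cells alone. The median change of the genes with a lower interaction was -0.09 in the GFP cells and 0.70 in whole, and of those with a higher interaction 0.11 in the GFP cells and -0.59 in whole. Since whole contains the GFP cells, a gene at one level in GFP cells can move in whole through their share of the sample, and that share was not measured.

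**Figure D2:**
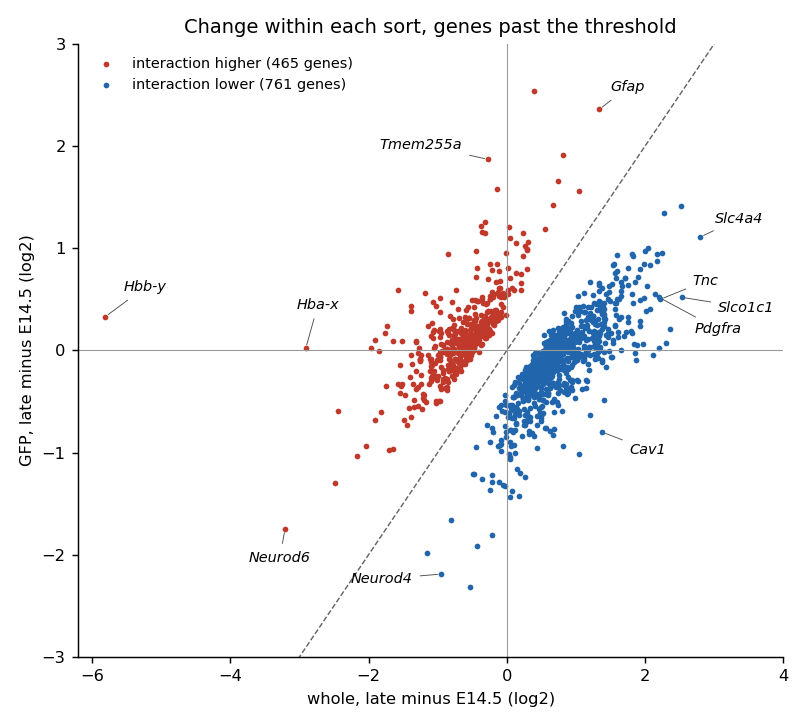
Change from E14.5 to the late age in the GFP cells (vertical axis) against the change in whole (horizontal axis), in log2 units, for the 1226 genes past the threshold, with the dashed line where both changes are equal. Points spread far along the horizontal axis and little along the vertical one, and Gfap and Tmem255a lie high on the vertical axis and Neurod4 low.

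Astrocyte genes passed in both directions. Of 30 genes with known astrocyte expression, 14 passed with a lower and 2 with a higher interaction, and the list's median was -0.50. Both sorts moved the same way: 25 of the 30 rose in the GFP cells and 28 rose in whole, with a median change of 0.96 in GFP and 1.54 in whole. The mean of the list was 10.71, 10.64 and 10.83 in GFP late and 10.06, 10.08 and 10.06 in whole late, against 9.65 and 9.56 in GFP E14.5 and 8.35, 8.64 and 8.61 in whole E14.5. At either age every GFP array stood above every whole array, and the gap was narrower late. Without GFP E14.5 replicate 1, 7 passed with a lower and 1 with a higher interaction.

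Slc1a3, the glutamate transporter that radial glia already carry, measured 12.10, 12.12 and 12.17 in GFP late and 11.47, 11.52 and 11.43 in whole late. At E14.5 it measured 11.93 and 11.92 in GFP and 9.92, 10.21 and 10.12 in whole. The GFP arrays were close together at both ages while whole was far lower at E14.5, so the ratio of GFP to whole was 1.58 at the late age and 3.57 at E14.5, with an interaction of -1.17 ± 0.11 (adjusted p = 3.46e-05). The sodium bicarbonate cotransporter Slc4a4 had the lowest interaction of the list, -1.68 ± 0.20 (adjusted p = 0.000268). It rose by 1.11 in the GFP cells and by 2.80 in whole, where replicate 2 of E14.5 (9.34) stood above replicates 1 and 3 (8.66 and 8.91). The peptide transporter Slc15a2 (-1.42) and the GABA transporter Slc6a11 (-1.40) followed, both called.

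Gfap, the intermediate filament protein of mature and reactive astrocytes, went the other way. It measured 9.96, 9.28 and 9.70 in GFP late and 8.75, 8.28 and 8.44 in whole late. At E14.5 it measured 7.30 and 7.27 in GFP and 6.99, 7.16 and 7.31 in whole. The sorts overlapped at E14.5 and were apart at the late age, with a ratio of GFP to whole of 2.23 late and 1.10 at E14.5 and an interaction of 1.02 ± 0.22 (adjusted p = 0.0104). All E14.5 values of Gfap lay under the array medians of all genes (7.74 to 7.82), where a difference between the sorts may not be measurable. The gap junction gene Gjb6 had a higher interaction as well (1.18, adjusted p = 0.0343), a call lost without any of GFP E14.5 replicates 1 and 2, whole E14.5 replicates 1 and 3 and whole late replicates 1 and 2, with an adjusted p of up to 0.135. The water channel Aqp4 rose by 3.02 in the GFP cells and by 2.42 in whole, and its interaction of 0.60 did not pass (adjusted p = 0.102).

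**Figure D3:**
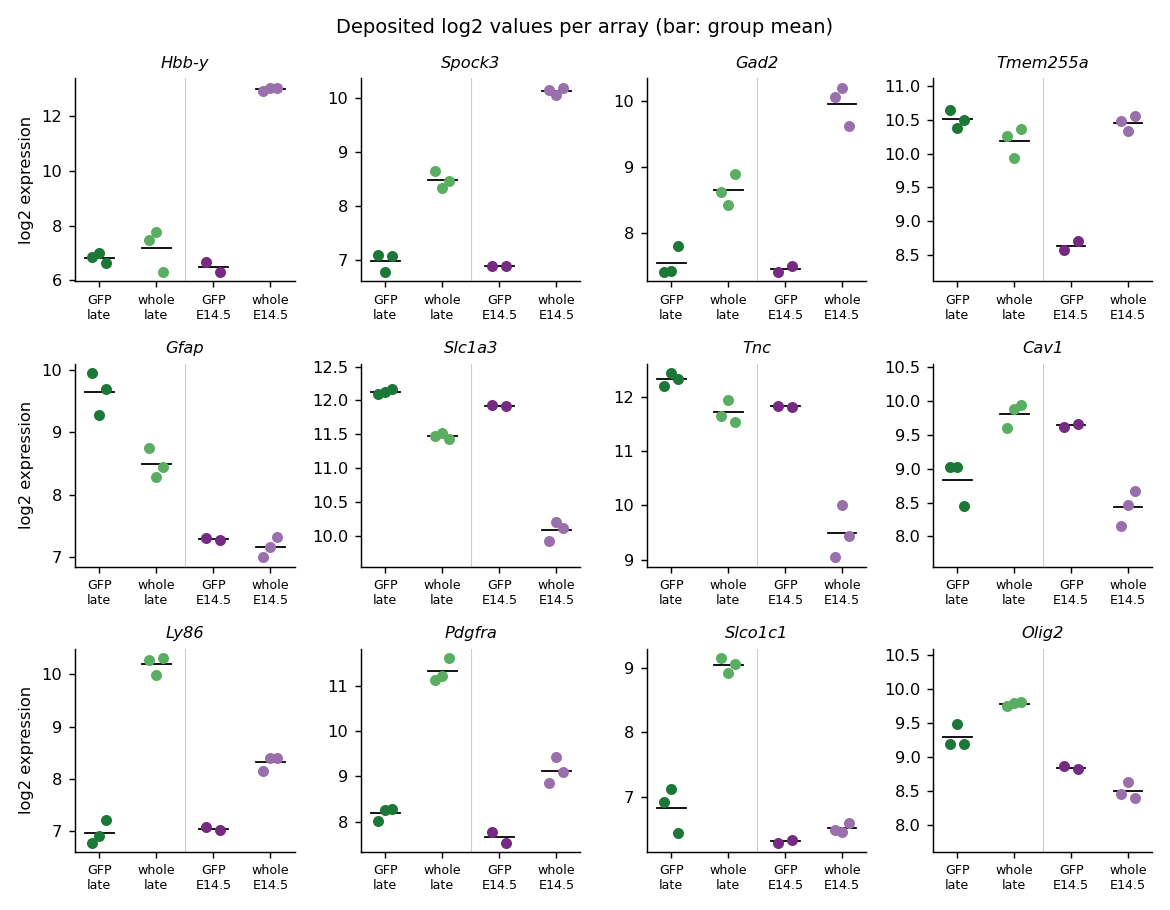
Deposited log2 value of 12 genes on each of the 11 arrays (points) with the group mean (bar), in the order GFP late, whole late, GFP E14.5 and whole E14.5; the vertical axes differ in level. In Slc1a3 and Tnc the low group is whole at E14.5, in Ly86, Pdgfra and Slco1c1 the high group is whole at the late age, and in Tmem255a and Gfap the GFP cells themselves differ between the ages.

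Radial glia and progenitor genes had 9 of 20 members above whole late, against 13 at E14.5. Of 20 members, 6 passed with a lower interaction and 1 with a higher one (median -0.45), 9 rose and 3 fell in whole, and 1 rose and 4 fell in the GFP cells. The phosphatase Ptprz1 had an interaction of -1.43 ± 0.19 (adjusted p = 0.000353), the endothelin receptor Ednrb one of -1.14 ± 0.16 and the calcium-binding protein Rcn1 one of -1.01 ± 0.14. Pax6, a progenitor transcription factor, measured 9.44, 9.51 and 9.35 in GFP late and 8.70, 9.32 and 8.74 in whole late, against 9.84 and 9.98 in GFP E14.5 and 8.36, 8.56 and 8.45 in whole E14.5. Its GFP arrays were above its whole arrays at both ages, and the interaction was -0.94 ± 0.19 (adjusted p = 0.00723). The 1 member that rose in enrichment was Dach1 (0.85), named after its values were seen.

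Among 19 transcription factors of gliogenesis 7 passed with a lower interaction and 0 with a higher one by limma (median -0.36), also 0 higher at an unadjusted p under 0.05. Without GFP E14.5 replicate 1, GFP E14.5 replicate 2 or whole E14.5 replicate 1, 4 passed in each case. Etv5, an ETS factor downstream of FGF signalling, measured 10.90, 11.03 and 10.98 in GFP late and 10.41, 10.55 and 10.58 in whole late, against 10.84 and 10.74 in GFP E14.5 and 8.54, 9.35 and 8.46 in whole E14.5. Its GFP values were level and whole was lowest at E14.5, which gave an interaction of -1.55 ± 0.25 (adjusted p = 0.00171). Its relative Etv1, among the 15 largest falls of all genes, had -1.85 ± 0.27 (adjusted p = 0.000806), and the ciliary and patterning factor Rfx4 had -1.02 ± 0.19 (adjusted p = 0.00522).

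Sox9 and Nfe2l1 are the factors named in the study's title. Sox9, which directs the switch to gliogenesis, measured 10.96, 10.85 and 10.47 in GFP late and 10.28, 10.44 and 10.15 in whole late, against 10.83 and 10.79 in GFP E14.5 and 9.51, 9.75 and 9.81 in whole E14.5. GFP was above whole at both ages without overlap. Its interaction was -0.65 ± 0.18 with an adjusted p of 0.0496, and the call was kept only without GFP late replicate 1 and without whole late replicate 3 among the 11 fits that left out 1 array (adjusted p of up to 0.163). Nfe2l1, a transcription factor of the stress response and proteasome genes, had an interaction of -0.36 ± 0.11 that did not pass (adjusted p = 0.0812). It lay 0.16 above whole at the late age (adjusted p = 0.242) and 0.52 above it at E14.5 (adjusted p = 0.000234).

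In the Notch pathway, which holds progenitors undifferentiated, 5 of 18 genes passed with a lower interaction and 0 with a higher one by limma (median -0.29), with 1 higher at an unadjusted p under 0.05. The target gene Hey1 had -0.77 ± 0.15 (adjusted p = 0.00575) and rose in whole by 0.81 with a GFP change of 0.04. The receptor Notch1 had -0.69 (adjusted p = 0.018, and 0.136 without GFP E14.5 replicate 1). The list's count was 2 without GFP E14.5 replicate 1, GFP E14.5 replicate 2, whole E14.5 replicate 1 or whole late replicate 2, and 3 without GFP late replicate 3. Of 20 enzymes of cholesterol synthesis, 3 passed with a lower interaction, at most 2 in any fit that left out 1 array, and 9 of the 20 fell in the GFP cells (0 rose by limma, also 0 at an unadjusted p under 0.05).

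Of 23 secreted and matrix proteins of astrocytes, 10 passed with a lower and 1 with a higher interaction (median -0.43). Tnc, the matrix glycoprotein tenascin C, measured 12.20, 12.45 and 12.34 in GFP late and 11.66, 11.95 and 11.54 in whole late, against 11.84 and 11.82 in GFP E14.5 and 9.04, 10 and 9.44 in whole E14.5. GFP exceeded whole at both ages and whole rose by 2.22, so the ratio was 1.53 at the late age and 5.05 at E14.5, with an interaction of -1.72 ± 0.29 (adjusted p = 0.00228). The spondin Spon1 (-1.23 ± 0.13, adjusted p = 0.000104) and the metalloproteinase inhibitor Timp3 (-1.10 ± 0.18, adjusted p = 0.00173) also fell in enrichment. Adamts3, a metalloprotease named after its values were seen, had the lowest value of the list, -1.88, and did not pass.

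**Figure D4:**
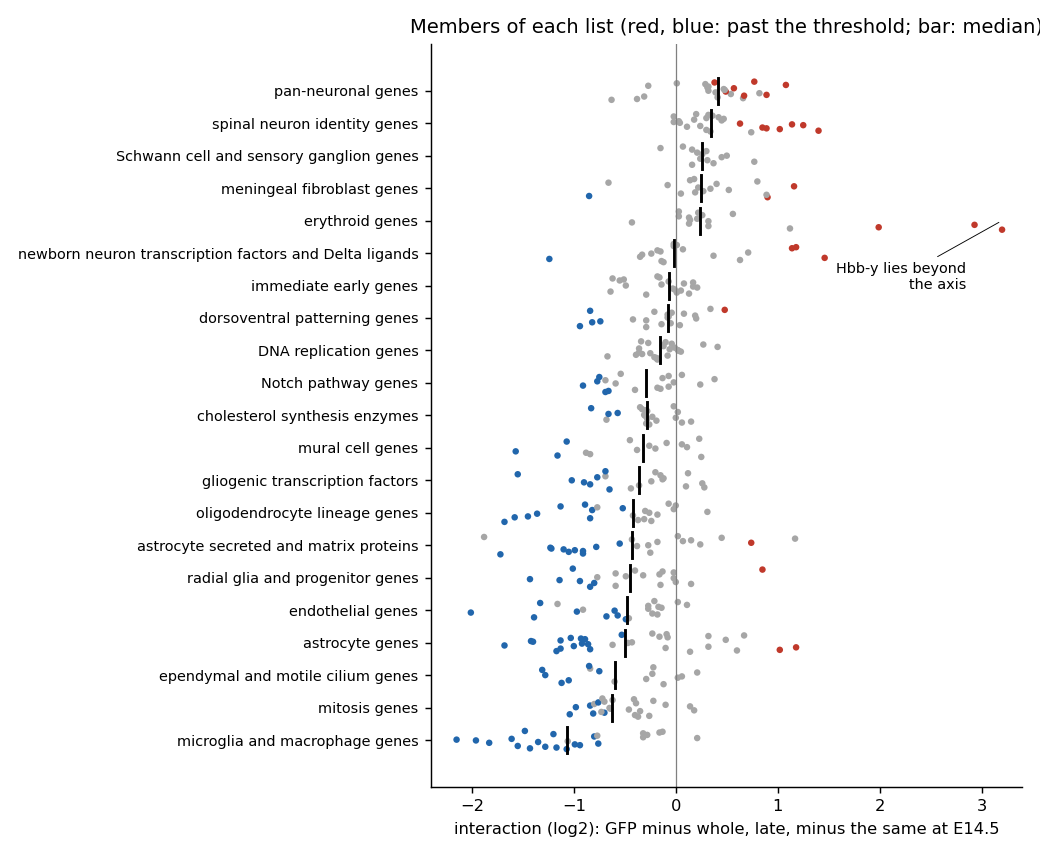
Interaction (horizontal axis, log2 units) of each measured member of the 21 gene lists, ordered by the list's median (black bar), with members past the threshold in red (higher) or blue (lower) and Hbb-y, at 6.14, drawn at the right edge. Microglia and macrophage genes have the lowest median (-1.06) and pan-neuronal genes the highest (0.41).

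Microglia and macrophage genes had the lowest median of the 21 lists, -1.06, with 16 of 24 lower and 0 higher by limma (also 0 higher at an unadjusted p under 0.05). These genes mark cells of yolk sac origin that the GFP sort should leave out. Their mean was 7.32, 7.31 and 7.38 in GFP late and 9.12, 8.97 and 9.78 in whole late, against 7.20 and 7.29 in GFP E14.5 and 8.14, 8.21 and 8.19 in whole E14.5. The GFP means lay under the array medians of all genes (7.74 to 7.82) at both ages. In whole 20 of the 24 rose, in the GFP cells 1 did, and the whole E18.5 array (replicate 3) stood highest.

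The number of the list's genes passing was 8 without GFP E14.5 replicate 1, 6 without GFP E14.5 replicate 2, 9 without whole E14.5 replicate 1 and 10 without either whole E14.5 replicate 3 or GFP late replicate 2. Without the whole E18.5 array it was 15, with a median of -0.72, and without both E18.5 arrays 16, with a median of -0.81.

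Ly86, the MD-1 protein that partners the receptor RP105 on myeloid cells, measured 6.79, 6.91 and 7.21 in GFP late and 10.27, 9.98 and 10.31 in whole late. At E14.5 it measured 7.08 and 7.03 in GFP and 8.15, 8.40 and 8.40 in whole. GFP was flat and low and whole rose by 1.87, so the ratio of GFP to whole was 0.108 at the late age and 0.418 at E14.5, with an interaction of -1.96 ± 0.17 (adjusted p = 9.26e-06). Fcrls, an Fc receptor-like gene of microglia, had -2.15 ± 0.44 (adjusted p = 0.00772), and whole late measured 9.70, 9.61 and 11.30, the last being the E18.5 array. The complement gene C1qc (-1.83 ± 0.34, adjusted p = 0.00453) was also highest on that array, 11.05 against 9.82 and 9.67. It is the only whole array of E18.5, so its age and a deviation of that array cannot be told apart. The complement receptor C3ar1 (-1.61) had an enrichment of -4.11 late and -2.51 at E14.5, and its call was lost without GFP E14.5 replicate 2 (adjusted p = 0.0719).

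The promoters of Fcrls and C1qc are shown because both genes belong to the list with the largest share of members past the threshold and hold the core motif of PU.1, the transcription factor that directs myeloid development. The sequences are RefSeq's, build GRCm38.p6, and are the 300 bases that span each gene's start. Fcrls lies at chr3:87263475-87263774 and C1qc at chr4:136892865-136893164, both on the minus strand. Capitals mark GAGGAAG or its reverse complement CTTCCTC.
Fcrls: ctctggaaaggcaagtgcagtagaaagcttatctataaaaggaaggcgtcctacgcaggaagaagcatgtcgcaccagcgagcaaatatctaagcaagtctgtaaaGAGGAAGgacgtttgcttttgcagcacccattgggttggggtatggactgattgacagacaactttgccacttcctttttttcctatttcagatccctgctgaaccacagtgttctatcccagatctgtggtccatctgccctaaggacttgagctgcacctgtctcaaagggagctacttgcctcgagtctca
C1qc: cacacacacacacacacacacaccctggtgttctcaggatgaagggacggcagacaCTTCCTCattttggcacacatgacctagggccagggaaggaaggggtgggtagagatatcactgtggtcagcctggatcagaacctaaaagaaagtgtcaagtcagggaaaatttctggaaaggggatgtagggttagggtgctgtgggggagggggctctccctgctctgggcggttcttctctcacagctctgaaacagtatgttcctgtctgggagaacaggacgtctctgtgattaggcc
The motif starts at base 107 in Fcrls as written and at base 57 in C1qc as the reverse complement, and the windows of Ly86 and C3ar1 hold no match. On either strand it was found in 3658 of 27025 promoters of the same length, in 8 of the 18 list members with an entry (44.4%) and in 5 of the 12 of these called lower (41.7%). AACAAT, the core motif of Sox factors, was found in 10.9% of all promoters and in 2 of the 18 members (11.1%). A match describes the letters only.

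Other myeloid genes were among the 15 largest falls of all genes. Mpeg1, a pore-forming protein of macrophages, had -1.89 ± 0.34 (adjusted p = 0.00352), and the survival genes Bcl2a1a, Bcl2a1b and Bcl2a1d had -1.91, -1.88 and -1.77. They are near-identical copies whose probes may not tell them apart.

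Oligodendrocyte lineage genes had 14 of 21 members below whole and 0 above it at the late age, against 4 below and 3 above at E14.5, by limma (also 0 above late at an unadjusted p under 0.05). Of the 21 members 9 passed with a lower interaction and 0 with a higher one by limma (median -0.42; also 0 higher at an unadjusted p under 0.05), 14 rose in whole, and 4 rose and 1 fell in the GFP cells. Pdgfra, the receptor of oligodendrocyte precursors, measured 8.02, 8.25 and 8.27 in GFP late and 11.12, 11.22 and 11.61 in whole late, against 7.77 and 7.54 in GFP E14.5 and 8.86, 9.42 and 9.09 in whole E14.5. GFP was below whole at both ages, with an enrichment of -3.14 late and -1.46 at E14.5, and the interaction was -1.68 ± 0.22 (adjusted p = 0.000334). Gpr17, a receptor of differentiating precursors, had -1.58 ± 0.19 (adjusted p = 0.000286) and the premyelinating gene Bcas1 had -1.45 ± 0.25 (adjusted p = 0.00238).

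Olig2, the factor that founds the motor neuron and oligodendrocyte domain, changed sides. It measured 9.19, 9.49 and 9.19 in GFP late and 9.75, 9.80 and 9.81 in whole late, against 8.86 and 8.82 in GFP E14.5 and 8.46, 8.63 and 8.39 in whole E14.5. Every GFP array lay below every whole array late and above it at E14.5. The enrichment was -0.50 late (adjusted p = 0.00466) and 0.35 at E14.5 (adjusted p = 0.0469), and the interaction was -0.84 ± 0.16 (adjusted p = 0.00418). Nkx2-2, a ventral patterning factor that precursors also use, had -0.82 ± 0.17 (adjusted p = 0.00899). In the list of 20 dorsoventral patterning genes that holds Olig2, Pax6 and Nkx2-2, 4 passed with a lower and 1 with a higher interaction (median -0.08), and 3 passed without either GFP E14.5 array.

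Vessel genes gave a mixed picture of genes seen in whole alone and genes shared with the GFP cells. Of 20 endothelial genes 8 passed with a lower interaction and 0 with a higher one by limma (median -0.48), also 0 higher at an unadjusted p under 0.05. Without GFP E14.5 replicate 2, 5 passed. Slco1c1, a thyroid hormone transporter of the blood-brain barrier, measured 6.92, 7.12 and 6.44 in GFP late and 9.15, 8.92 and 9.05 in whole late, against 6.29 and 6.33 in GFP E14.5 and 6.48, 6.46 and 6.59 in whole E14.5. Only the late whole arrays were high, and the interaction was -2.01 ± 0.19 (adjusted p = 2.29e-05). The other values of Slco1c1 lay under the array medians of all genes (7.74 to 7.82), where a difference between the sorts may not be measurable. The means of the endothelial list lay under them as well in GFP (7.24 to 7.42) and in whole E14.5 (7.31 to 7.36). Kdr, the VEGF receptor, had -1.39 ± 0.15 (adjusted p = 8.5e-05) with an enrichment of -1.52 late and -0.13 at E14.5. The glucose transporter Slc2a1 was above whole by 0.88 at E14.5 and at -0.09 at the late age (adjusted p = 0.685), with an interaction of -0.97 ± 0.15 (adjusted p = 0.00115).

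Cav1, the caveola protein caveolin 1, and Mfsd2a, the lysolipid transporter of barrier endothelium, lay below whole at the late age and above it at E14.5. Cav1 measured 9.03, 9.03 and 8.45 in GFP late and 9.61, 9.88 and 9.95 in whole late, against 9.62 and 9.66 in GFP E14.5 and 8.16, 8.46 and 8.67 in whole E14.5. The arrays of the sorts did not overlap at either age, in opposite order, and the GFP change was -0.80 (adjusted p = 0.01) while whole changed by 1.38. Mfsd2a changed by -1.01 in the GFP cells and by 1.05 in whole. The interactions were -2.19 ± 0.24 for Cav1 (adjusted p = 0.000104) and -2.06 ± 0.25 for Mfsd2a (adjusted p = 0.000282). Across all genes, 23 passed at both ages on opposite sides with a called interaction, 11 with a lower and 12 with a higher one.

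Of 14 mural cell genes 3 passed with a lower interaction and 0 with a higher one by limma (median -0.32; also 0 higher at an unadjusted p under 0.05), and 5 passed without the whole E18.5 array (median -0.52). The pericyte gene Higd1b had -1.57 ± 0.17 (adjusted p = 9.98e-05) and the PDGF receptor Pdgfrb had -1.16 ± 0.19 (adjusted p = 0.00195). In the meningeal list 2 of 16 passed with a higher interaction and 1 with a lower one (median 0.25), and 1 in all without GFP E14.5 replicate 1. Aldh1a2, the retinoic acid enzyme, had 1.16 ± 0.19 (adjusted p = 0.00204).

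Neuronal genes narrowed from the depleted side. Of 23 pan-neuronal genes 7 passed with a higher interaction and 0 with a lower one by limma (median 0.41; 3 lower at an unadjusted p under 0.05), with 22 falling in whole and 9 in the GFP cells. The mean of the list was 8.60, 8.47 and 8.45 in GFP late and 9.60, 9.50 and 9.72 in whole late, against 9.07 and 9.04 in GFP E14.5 and 10.60, 10.47 and 10.48 in whole E14.5. GFP stayed below whole at both ages. The adhesion molecule L1cam had 1.08 ± 0.21 (adjusted p = 0.00593) and the microtubule regulator Stmn3 had 0.77 ± 0.14 (adjusted p = 0.00449). The list's count was 3 without GFP E14.5 replicate 1 or GFP late replicate 1, 2 without GFP E14.5 replicate 2 or whole E14.5 replicate 1, all with a higher interaction. Without whole late replicate 2 it was 3 higher and 1 lower, without GFP late replicate 3 it was 9 higher and 1 lower, and without both E18.5 arrays 7 higher and 1 lower.

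Of 24 genes of spinal neuron identity, 7 passed with a higher and 0 with a lower interaction by limma (median 0.35), also 0 lower at an unadjusted p under 0.05. The list's means were 7.27 to 7.33 in GFP late, 7.56 to 7.62 in whole late and 7.39 to 7.40 in GFP E14.5. These lay under the array medians of all genes, where a fall may not be measurable, and only whole E14.5 (8.11 to 8.21) lay above them. Gad2, which makes the transmitter GABA, measured 7.42, 7.43 and 7.80 in GFP late and 8.62, 8.43 and 8.89 in whole late, against 7.41 and 7.50 in GFP E14.5 and 10.06, 10.20 and 9.62 in whole E14.5. GFP values overlapped between the ages and whole fell by 1.31, giving 1.40 ± 0.24 (adjusted p = 0.00226). The GFP values of Gad2 lay near or under the array medians of all genes (7.74 to 7.82), where a fall may not be measurable. The interneuron factor Pax2 (1.14 ± 0.20), the motor neuron factor Isl1 (1.25 ± 0.17) and the glycine transporter Slc6a5 (1.02 ± 0.16) also passed.

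Among 18 transcription factors and Delta ligands of newborn neurons, 3 passed with a higher and 1 with a lower interaction (median -0.02), and 2 in all without GFP E14.5 replicate 2. Here both sorts fell: 10 of the 18 fell in GFP and 11 in whole. Late, the list's means (7.06 to 7.10 in GFP, 7.41 to 7.45 in whole) lay under the array medians of all genes (7.74 to 7.82). Ebf2 fell by 1.03 in GFP and by 2.17 in whole, with 1.14 ± 0.14 (adjusted p = 0.000286). Neurod4, a proneural factor, was the lower call at -1.24 (adjusted p = 0.011), since it fell by 2.19 in GFP and by 0.95 in whole, and its adjusted p was 0.0564 without GFP E14.5 replicate 2. The neuropeptide Npy (2.15 ± 0.26), the corepressor Runx1t1 (2.01 ± 0.16), the patterning gene Mab21l2 (1.85 ± 0.17) and the proteoglycan Spock3 (1.74 ± 0.23) were among the 15 largest rises and fell in whole by 1.57, 1.91, 2.44 and 1.65.

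**Figure D5:**
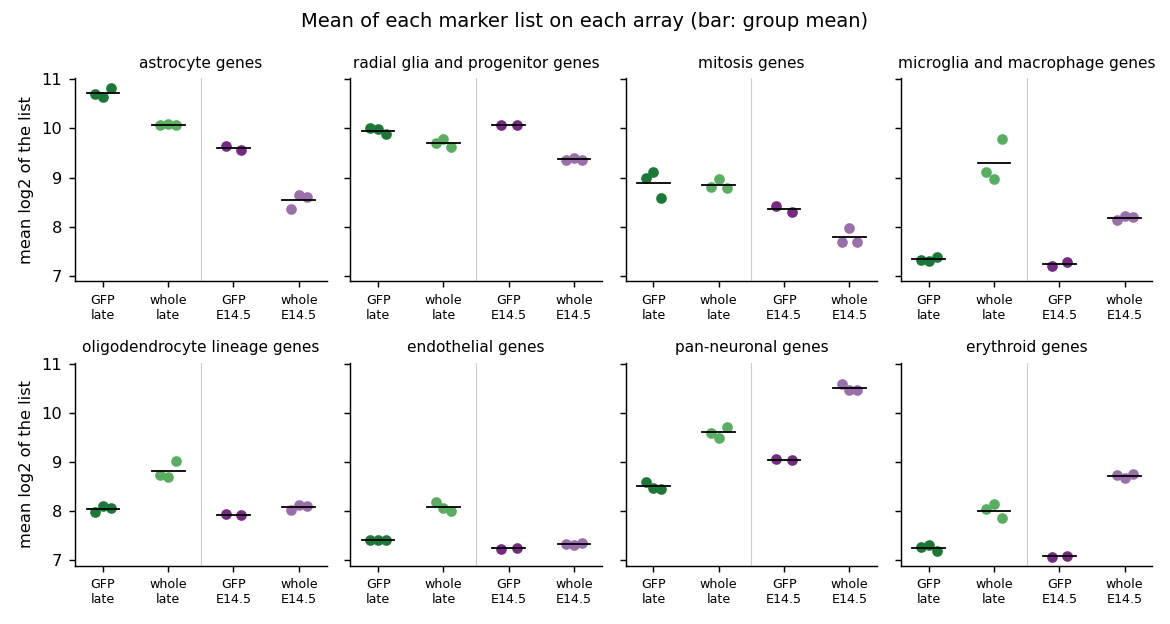
Mean log2 value of 8 gene lists on each of the 11 arrays (points) with the group mean (bar), in the order GFP late, whole late, GFP E14.5 and whole E14.5, on 1 vertical scale. Astrocyte genes are higher late than at E14.5 in both sorts, microglia, oligodendrocyte and endothelial genes are high in whole at the late age, and pan-neuronal and erythroid genes are high in whole at E14.5, where 4 of the 16 erythroid members were higher than late, embryonic globins among them, and the median change of the list in whole was -0.08.

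The largest interaction of all genes belonged to a globin. Hbb-y, the embryonic beta-like globin of primitive red cells, measured 6.84, 6.99 and 6.65 in GFP late and 7.46, 7.76 and 6.30 in whole late, against 6.67 and 6.32 in GFP E14.5 and 12.91, 13 and 13.03 in whole E14.5. The 3 whole arrays of E14.5 were high and all others low, and the interaction was 6.14 ± 0.41 (adjusted p = 1.32e-06). The embryonic globins Hba-x (2.93 ± 0.29, adjusted p = 5.56e-05) and Hbb-bh1 (1.99 ± 0.26, adjusted p = 0.000356) had the same order, and these 3 were the only ones of 16 erythroid genes to pass (median 0.24). The adult globins Hbb-b1 (1.12) and Hba-a1 (0.32), named after their values were seen, did not.

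Tmem255a, a membrane protein gene of unclear function, was among the 15 largest rises and changed in the GFP cells. It measured 10.65, 10.38 and 10.50 in GFP late and 10.26, 9.93 and 10.37 in whole late, against 8.57 and 8.71 in GFP E14.5 and 10.48, 10.33 and 10.56 in whole E14.5. The GFP arrays of E14.5 were the low group, and the GFP cells rose by 1.87 while whole changed by -0.27 (adjusted p = 0.144). The interaction was 2.14 ± 0.18 (adjusted p = 9.26e-06). At E13.5 the gene measured 10.09, 10.04 and 10.35 in GFP, near its late level, and its enrichment was -0.12 (adjusted p = 0.552). Among the GFP arrays only the 2 of E14.5 were low, so the values do not show a steady rise with age.

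Cell division and cilia genes were lower in enrichment as both sorts rose. Of 24 mitosis genes 6 passed with a lower interaction and 0 with a higher one by limma (median -0.63; also 0 higher at an unadjusted p under 0.05), 10 rose in GFP and 21 in whole, and 1 passed without GFP E14.5 replicate 1. The mean of the list was 9, 9.11 and 8.58 in GFP late, the last being the E18.5 array, and the median was -0.40 without that array. Top2a, a topoisomerase of dividing cells, measured 10.26, 10.49 and 10.13 in GFP late and 10.36, 10.46 and 10.29 in whole late, against 9.78 and 9.54 in GFP E14.5 and 8.51, 9.04 and 8.56 in whole E14.5. The sorts overlapped late and were apart at E14.5, with an interaction of -1.04 ± 0.20 (adjusted p = 0.00522). Of 24 DNA replication genes 0 passed by limma (median -0.15), and 3 were lower and 0 higher at an unadjusted p under 0.05. Over all 23854 genes 2060 were lower and 2281 higher at that unadjusted p.

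Of 15 ependymal and motile cilium genes 6 passed with a lower interaction and 0 with a higher one by limma (median -0.60; also 0 higher at an unadjusted p under 0.05), 9 rose in GFP and 11 in whole, and 1 passed without GFP E14.5 replicate 2. Without GFP late replicate 2 the median was -0.38. Mia, a small secreted protein placed in this list, had -1.12 ± 0.19 (adjusted p = 0.00246), rising by 0.80 in GFP and by 1.92 in whole. The dynein subunits Dnah6 (-1.31) and Dynlrb2 (-1.28) passed, but not without GFP E14.5 replicate 2 (adjusted p of 0.0836 and 0.0546).

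The genes of immediate early response, which move with dissociation and handling, passed in neither direction by limma (0 of 19, median -0.07), with 1 lower and 0 higher at an unadjusted p under 0.05. Their mean was 9.04, 8.20 and 8.12 in GFP late and 8.36, 8.46 and 8.70 in whole late, against 8.25 and 8.36 in GFP E14.5 and 8.15, 8.14 and 8.33 in whole E14.5. GFP late replicate 1 stood above the other arrays, and without it 4 of the 19 passed with a lower interaction and the median was -0.31. The part of handling in other results was not tested. Of 13 Schwann cell and sensory ganglion genes 0 passed by limma (median 0.26), with 4 higher at an unadjusted p under 0.05.

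The authors' coexpression modules, built on these same arrays and so no independent evidence, passed in 1 direction in some cases and in both in others. Over all genes 1.95% passed with a higher and 3.19% with a lower interaction. In the blue module 146 of 315 genes passed with a higher interaction and 0 with a lower one by limma (2 lower at an unadjusted p under 0.05). In the modules named turquoise and red 120 of 288 and 47 of 79 passed with a lower interaction, and 0 with a higher one in either, also at an unadjusted p under 0.05. In the green module, which holds Pdgfra and Ly86, 67 of 149 passed with a lower interaction and its median enrichment was -1.23 at the late age and -0.42 at E14.5. The magenta (11 of 32) and pink (11 of 45) modules had lower calls and no higher ones, and 0 higher at an unadjusted p under 0.05. The black module had 2 lower calls of 52, near the share of all genes, and likewise 0 higher at either threshold. Both directions were called in the yellow module, with 4 higher and 21 lower of 158, the higher calls near the share of all genes. The brown module had 12 higher and 1 lower of 163, the lower call under the share of all genes. In the purple module 0 of 27 passed by limma, with 5 higher and 1 lower at an unadjusted p under 0.05.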

How the data were processed

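Papain-dissociated cords were flow sorted and their RNA amplified and biotin labelled, per the labels' protocols. The authors deposited log2 expression values for 35556 probe sets on 18 arrays. The submitters' processing notes name oligo, RMA, limma and the build mm9, with versions not given in the sources used here. Precision is limited by the number of arrays, which carry no depth. No batch or scan date is in the labels.

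The value table has no gene names. They were taken from the authors' deposited module membership scores (kME, the correlation of a gene with a module profile on linear values), which were recomputed and matched for 23890 genes within 1e-06, 135 of them matching more than 1 probe set. Symbols were updated with a RefSeq table (GRCm38.p6), and for 36 genes with several probe sets the one with the highest mean was used. The value columns of 2 deposited lists of compared genes carry letters and could be tied to a group but to no single array. They served only to start the matching of names, and the 6 for GFP E14.5, which has fewer arrays than columns, were not used.

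The 17 arrays with a group were fitted in limma 3.58.1 (R 4.3.3) as 6 group means (11 residual and 5.42 prior degrees of freedom), with Benjamini-Hochberg adjustment over 23854 genes and a threshold of 0.05, and the script was tested on simulated data. Values after ± are limma's standard errors. Groups joined E17.5 and E18.5 because the titles number replicates through both ages. A change or an enrichment is a difference of group means in log2 units.

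The members, the 21 lists and the named genes were chosen with earlier results of these data known. Named genes are the 15 largest rises and 15 largest falls past the threshold, up to 4 members of each list past it, and Aldh1l1, Sox9, Nfe2l1, Gfap, Aqp4, Slc1a3, Olig2 and Pdgfra. Dach1, Adamts3, Hbb-b1, Hba-a1 and the genes of the closing observations were named after their values were seen. Some genes that meet the rule are not reported here. Gjc3, Rbfox3, Spag6l and Hspa1b were not measured. Alternatives were other array sets, quantile normalization, a common median, a filter on dim genes, all probe sets, other eBayes settings, array weights, a replicate block and leaving out each array.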

Additional observations from a re-analysis of the deposited data

Results flagged for a closer look

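The interaction itself tests whether the effect of the sort differs between the ages, and it did so for 465 genes with a higher and 761 with a lower enrichment at the late age. Of the 93 genes that met the naming rule and passed, 4 were on opposite sides of whole at the 2 ages, past the threshold at each. Cav1 (interaction -2.19), Mfsd2a (-2.06) and Olig2 (-0.84) lay below whole late and above it at E14.5. Ubxn2a, a UBX domain protein, lay above whole late and below it at E14.5 (1.79), and its adjusted p was 0.0901 without GFP E14.5 replicate 1. Of the other genes described, Dach1 (0.85), Gabbr2 (1.09), Nrcam (1.09) and Robo2 (0.96) also lay above whole late and below it at E14.5, past the threshold at each. No group held 4 or more arrays, so single arrays were not screened for outlying values.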

How the results depend on the processing

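The number of genes with a higher interaction (465) was 240 with the 11 arrays alone, 300 over all probe sets, 109 with a replicate block within age, and 231 to 508 when 1 array was left out. The number with a lower interaction (761) was 455 with the 11 arrays, 535 over all probe sets, 248 with the replicate block, and 413 to 796 with 1 array left out. The change of the GFP cells with age (1486 genes) gave 935 with the 11 arrays and 660 to 1615 with 1 array left out, with 670 and 660 without GFP E14.5 replicates 1 and 2. With 1 array left out, the change of whole gave 3477 to 4641 genes, GFP against whole 1638 to 2394 at the late age and 2947 to 4654 at E14.5. Where 1 GFP array of E14.5 was left out, the other was assumed to vary like the other groups. Deviations of same-numbered arrays of the sorts correlated at -0.032 and -0.081 at E14.5 and at -0.063, 0.121 and 0.104 late. Those of differently numbered arrays ranged from -0.179 to 0.098. With so few arrays these values cannot decide whether replicate numbers pair the sorts. Late replicate 3 was E18.5 in both sorts. Of 93 named genes that passed, 45 kept the call in all 20 alternative settings and 58 in all 11 that left out 1 array, and none changed sign. Nfe2l1 passed without dim genes (adjusted p = 0.0492). The causes of these differences between settings were not tested. The median interaction over all genes was between 0.013 and 0.072 in every setting.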

Other observations

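Genes whose enrichment moved along with a change in the GFP cells were looked up after their values were seen. The interaction was higher with a rise in the GFP cells for 82 genes (17.6% of the higher calls), 61 of them without a called change in whole. It was lower with a fall in the GFP cells for 147 (19.3% of the lower calls), 100 of them without a called change in whole. The GFP change is a term of the interaction, so the overlap is partly built in. The first set held receptors for glutamate and GABA: Gria1, an AMPA receptor subunit, had an interaction of 1.52 ± 0.20 (adjusted p = 0.000334), with 8.81, 8.43 and 8.43 in GFP late and 8.79, 8.41 and 8.73 in whole late, against 7.57 and 7.22 in GFP E14.5 and 8.91, 8.96 and 9.13 in whole E14.5. Its GFP arrays of E14.5 were the low group of the comparison, and those of E13.5 measured 7.35, 7.68 and 7.37. Grm5, a metabotropic glutamate receptor, had 1.61 (adjusted p = 0.000917) and rose by 1.22 in the GFP cells. Gabbr2, a subunit of the GABA-B receptor, lay at 0.71 from whole late and at -0.38 at E14.5 (interaction 1.09, adjusted p = 0.000334). The adhesion gene Nrcam (1.09, adjusted p = 0.00219) lay at 0.45 from whole late and at -0.64 at E14.5, and rose by 0.85 in the GFP cells. Outside this set, the guidance receptor Robo2 (0.96) lay at 0.37 late and at -0.58 at E14.5, with a GFP change of 0.08 (adjusted p = 0.684) and a whole change of -0.87.

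Among the genes with a lower interaction and a fall in the GFP cells, the heparan sulfatase Sulf1 fell by 1.24 there (interaction -1.50, adjusted p = 0.00635). The monooxygenase-like gene Moxd1 fell by 1.81 in the GFP cells (-1.60, adjusted p = 0.00668). Adgrv1, an adhesion receptor, measured 9.20, 9.48 and 9.24 in GFP late and 9.29, 9.10 and 8.79 in whole late, against 10.68 and 10.70 in GFP E14.5 and 8.75, 9.22 and 8.99 in whole E14.5. The GFP arrays of E14.5 were the only high group of the comparison, and the interaction was -1.45 ± 0.20 (adjusted p = 0.000493). At E13.5 Adgrv1 was high in GFP too (10.43, 10.50 and 10.59), with an enrichment of 1.22 (limma adjusted p = 4.35e-06). In the mechanosensitive channel Piezo2 the GFP arrays of E14.5 were likewise the high group of the comparison (-1.31 ± 0.16, adjusted p = 0.000286). Its GFP change was -1.16 and its whole change 0.15 (adjusted p = 0.41).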
